A study of Mus musculus with 12 samples.

Results

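The uptake of apoptotic cells, or efferocytosis, was examined through 9 of the 43346 genes in the count table: 6 receptors (Timd4, Axl, Mertk, Stab1, Cd300a and Lrp1) and 3 bridging molecules (Gas6, Pros1 and Mfge8). The genes were chosen by name for their known role, and all 9 passed the filter on low counts. The cells were cultured peritoneal macrophages of C57BL/6 mice, of wild-type (WT) or CD36 knockout (CD36KO) genotype. Exposure was to medium alone (control) or, over 8 h, to 20 µg/ml of oxLDL, a low-density lipoprotein whose lipids have been oxidized, which gave 4 groups with 3 libraries each. All groups shared the strain and the RPMI1640 medium with serum. The labels do not say which part of Cd36 was removed, how the peritoneal cells were purified, how old the mice were, or whether the replicates were different animals or dishes. The p-values therefore measure only the spread between these libraries, which may be technical.

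An apoptotic cell exposes phosphatidylserine on its outer membrane. TIM-4 (Timd4), stabilin-1 (Stab1) and the inhibitory receptor CD300a bind that lipid directly. The kinases AXL and MERTK bind it through the soluble proteins GAS6 and protein S (Pros1), and integrins bind it through MFG-E8 (Mfge8). GAS6 is the ligand of AXL, while MERTK accepts both GAS6 and protein S. LRP1 recognizes calreticulin on the dying cell and also clears many extracellular ligands. Macrophages use this machinery without inflammation, and in atherosclerotic plaques its failure leaves dead foam cells behind. CD36 itself binds oxLDL and oxidized phospholipids on apoptotic cells.

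Among the 9 genes, Timd4 and Axl rose with oxLDL in both genotypes. With all 12 libraries they were the members whose oxLDL response differed between genotypes at an adjusted p under 0.05. For Axl that result was lost in 11 of the 12 fits that left out 1 library. Mertk passed as well in the fit without WT oxLDL replicate 1. The promoters of Timd4 and Axl are shown here for the result with all libraries, with Gas6, the ligand gene that fell most, for comparison. Each runs from 250 bases before to 50 bases after the RefSeq start on the strand of the gene (RefSeq, GRCm38.p6). Capitals mark matches to the motifs searched. Timd4 lies at chr11:46810549-46810848 on the plus strand, Axl at chr7:25788684-25788983 on the minus strand and Gas6 at chr8:13494486-13494785 on the minus strand.
Timd4: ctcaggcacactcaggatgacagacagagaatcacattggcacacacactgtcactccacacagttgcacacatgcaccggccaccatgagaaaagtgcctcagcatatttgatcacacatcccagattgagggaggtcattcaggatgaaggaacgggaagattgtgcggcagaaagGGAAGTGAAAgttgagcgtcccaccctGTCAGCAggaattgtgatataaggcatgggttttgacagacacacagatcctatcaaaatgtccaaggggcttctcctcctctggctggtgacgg
Axl: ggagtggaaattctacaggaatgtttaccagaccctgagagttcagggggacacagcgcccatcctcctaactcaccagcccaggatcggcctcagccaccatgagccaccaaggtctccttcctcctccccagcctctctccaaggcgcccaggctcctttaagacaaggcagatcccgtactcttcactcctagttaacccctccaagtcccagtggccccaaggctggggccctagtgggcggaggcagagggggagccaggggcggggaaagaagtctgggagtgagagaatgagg
Gas6: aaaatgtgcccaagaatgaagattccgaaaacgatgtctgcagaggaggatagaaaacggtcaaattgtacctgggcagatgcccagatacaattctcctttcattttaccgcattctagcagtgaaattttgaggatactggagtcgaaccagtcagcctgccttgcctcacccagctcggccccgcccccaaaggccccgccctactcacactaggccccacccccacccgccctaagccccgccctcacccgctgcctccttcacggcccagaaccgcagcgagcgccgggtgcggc

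The search covered both strands for 8 motifs of factors that act in macrophages. Most were written as a pair of short words with free bases between them. They were the interferon-stimulated response element (GAAA, 2 bases, GAAA), the ETS-IRF composite element (GGAA, 2 bases, GAAA), the kappa B site (GGG, 2 bases, TTTCC), the AP-1 site (TGANTCA), the STAT site (TTC, 3 bases, GAA), the MAF half-site (TGCTGAC), the LXR element (AGGTCA, 4 bases, AGGTCA) and the PPAR element (AGGTCA, 1 base, AGGTCA). The interferon and ETS-IRF elements differ in their first word only. The Timd4 window held the ETS-IRF composite element 72 to 63 bases before the start, a match found in 2.72% of 32817 promoter windows. It also held the MAF half-site on the other strand, 45 to 39 bases before the start, found in 4.67% of windows. The windows of Pros1 and Lrp1 each held the STAT site, found in 8.29% of windows. No letters of the 8 motifs were matched in the windows of Axl, Gas6, Mertk, Mfge8, Stab1 and Cd300a. A match describes letters and not binding.

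Summed counts were 35257762 to 65135955 per library. Cd36 read 5362 ± 106 CPM (SD, n = 3) in WT control and 481 ± 28.3 CPM in CD36KO control, so reads assigned to the gene were reduced and not absent in the knockout. Levels are CPM, counts scaled to library size with TMM factors. The library WT oxLDL replicate 1 stood apart: its correlation with either of the remaining WT oxLDL libraries was 0.952 to 0.953, against 0.988 to 0.995 for all other pairs within groups, and its long genes read low relative to short ones. For the 9 genes each call that changed without that library is given beside the value, and for the other genes of the pathway counts of calls are given with and without it. The macrophage markers Lyz2, Cd68, Csf1r, Itgam and Adgre1 were high in all libraries, together at 15040 to 33552 CPM. The 6 markers of large peritoneal macrophages summed to 834 to 2267 CPM. Of these Cd9 averaged 759 CPM and Adgre1 488 CPM in WT control, and Gata6 averaged 12.6 CPM. Icam2 and Garnl3 stayed under 6 CPM in every library, and Timd4, which is on that list too, reached at most 10.3 CPM. Markers of other cells were also present, and their part in the results was not tested: 10 mesothelial and fibroblast genes summed to 650 to 1300 CPM in WT libraries and 1839 to 3375 CPM in CD36KO libraries. The 10 B cell genes summed to 53.1 to 116 CPM in WT and 178 to 357 CPM in CD36KO libraries. Of 5 eosinophil genes Epx was at 0 in all libraries, but Siglecf averaged 17.1 CPM in WT control. The 8 neutrophil genes summed to 7.62 to 9.07 CPM in WT control and 26.9 to 60.7 CPM in WT oxLDL. In CD36KO they summed to 6.21 to 7.07 CPM in control and 15.1 to 25.4 CPM with oxLDL. Among them Ly6g was at 0 in 9 of 12 libraries, while S100a8 reached 56.8 CPM. In bulk RNA, fewer cells of a type and less RNA per cell cannot be told apart.

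Per unit of gene length (RPKM, as the authors deposited it), Mfge8 was the most abundant of the 9 and Timd4 the least in every group. In WT control the order of mean RPKM was Mfge8 (1113 ± 27.0, SD, n = 3), Lrp1 (78.0 ± 2.39), Cd300a (55.8 ± 1.90), Mertk (31.6 ± 0.824), Gas6 (24.3 ± 2.53), Stab1 (23.0 ± 0.809), Axl (17.2 ± 2.13), Pros1 (15.2 ± 0.794) and Timd4 (0.0809 ± 0.00822). Gas6 and Stab1 did not differ beyond their spread, nor did Axl and Pros1. Under oxLDL Axl moved from the seventh place to the second in WT, at 49.6 ± 12.2 RPKM, and Gas6 moved from the fifth place to the eighth, at 4.21 ± 0.180 RPKM. Axl and Lrp1, at 39.3 ± 14.4 RPKM, overlapped there.

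**Figure D1:**
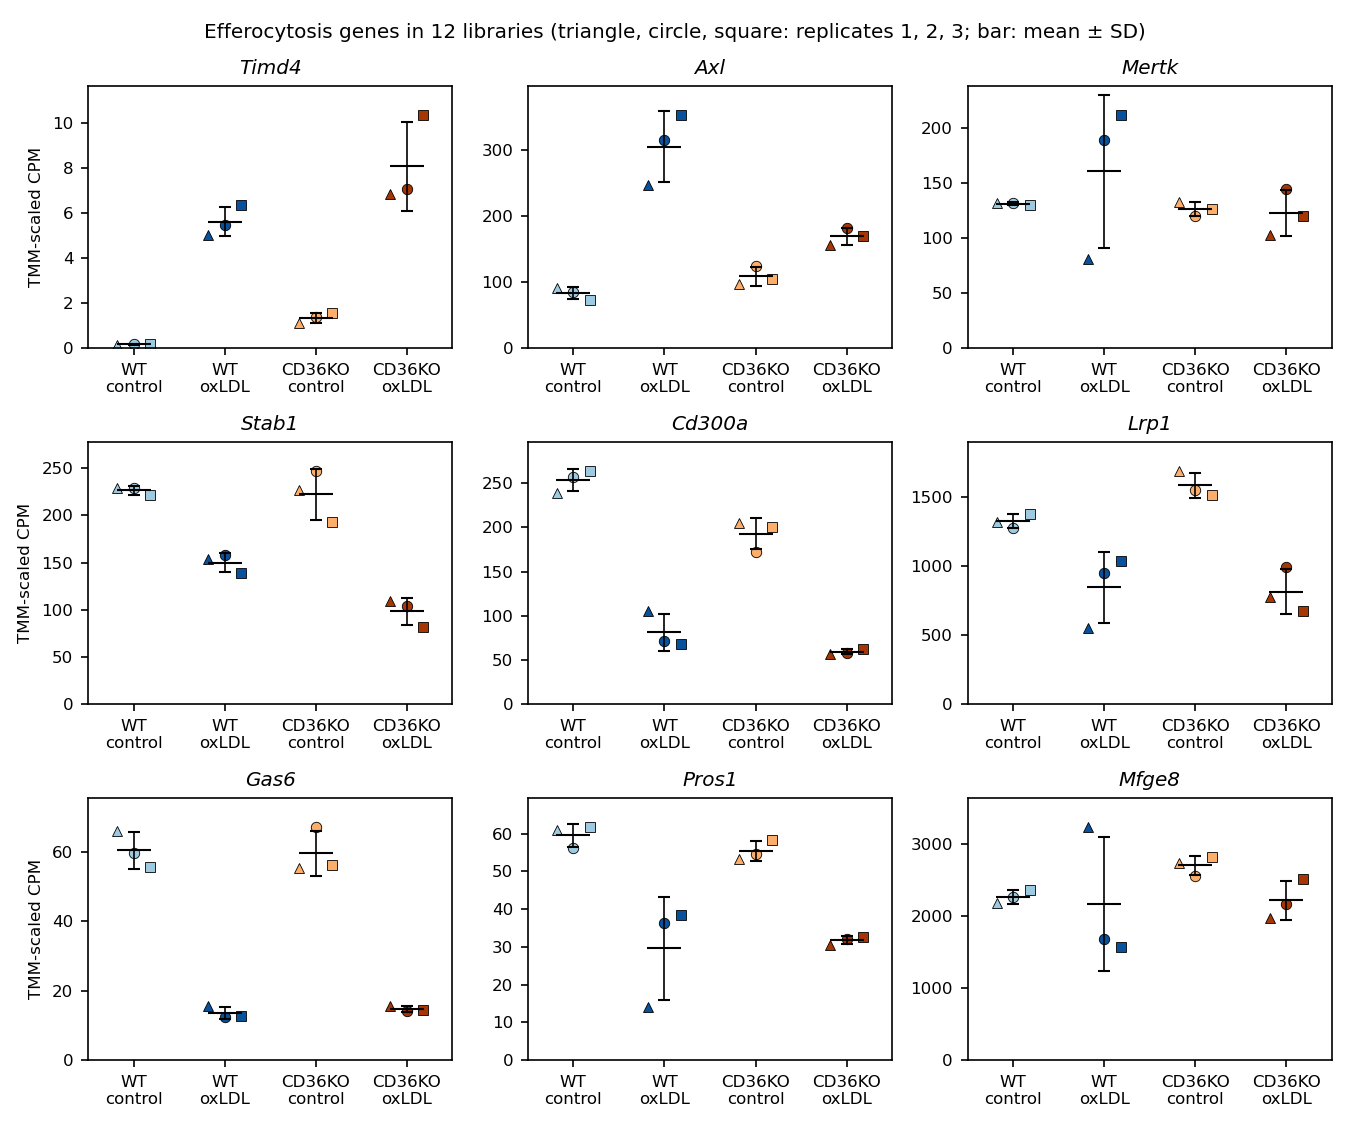
TMM-scaled CPM (y axis, linear from 0) of the 9 genes in the 4 groups (x axis); triangles, circles and squares are replicates 1, 2 and 3, and bars are mean ± SD of 3 libraries. Timd4 and Axl lie higher with oxLDL in both genotypes, Gas6, Cd300a, Stab1, Pros1 and Lrp1 lie lower, and for Mertk, Pros1, Mfge8 and Lrp1 WT oxLDL replicate 1 lies away from the other libraries of its group.

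The response of WT cells to oxLDL was examined first. Of the 9 genes, 2 rose and 5 fell at an adjusted p under 0.05, where 36.7% of all 16281 tested genes were called (18.1% higher, 18.6% lower). The median log2 fold change was -0.59 over the 9 genes and -0.01 over all tested genes. All adjusted p-values for genes are from edgeR's quasi-likelihood test with Benjamini-Hochberg adjustment over all tested genes, and log2 fold changes are given ± SE.

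Timd4, the phosphatidylserine receptor that marks resident macrophages, read 0.149, 0.185 and 0.173 CPM in the 3 WT control libraries, from 7 to 8 counts each. With oxLDL it read 5.03, 5.46 and 6.33 CPM, from 150 to 307 counts. All treated libraries lay above all controls, and the 2 ranges were far apart. The log2 fold change was 5.03 ± 0.26 (32.8-fold, adjusted p = 7.56e-08). Per length, its level with oxLDL was 2.10 ± 0.381 RPKM, still the lowest of the 9 genes. Of the 6 markers of large peritoneal macrophages, a list that holds Timd4 itself, 2 rose and 3 fell in WT, where 36.7% of tested genes were called. In CD36KO 2 rose and 2 fell, where 27.4% were called. Gata6 fell in WT (-1.18 ± 0.25, adjusted p = 0.00307) and in CD36KO (-1.09 ± 0.24, adjusted p = 0.00578).

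Axl, the kinase receptor that binds GAS6, read 90.9, 84.5 and 73.4 CPM in WT control and 247, 316 and 353 CPM with oxLDL. The groups did not overlap, and the log2 fold change was 1.88 ± 0.16 (3.68-fold, adjusted p = 3.48e-06). Mertk, the related kinase of resting macrophages, read 132, 132 and 130 CPM in control and 81.4, 189 and 212 CPM with oxLDL. The treated libraries lay on both sides of the controls, with replicate 1 the low one, and the log2 fold change of 0.29 ± 0.27 was not called (adjusted p = 0.432). Without WT oxLDL replicate 1 the value was 0.62 ± 0.12 (adjusted p = 0.000673).

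The remaining receptors fell. Cd300a, which inhibits myeloid activation, read 239, 257 and 264 CPM in control and 105, 71.3 and 67.4 CPM with oxLDL, with no overlap (log2 fold change -1.64 ± 0.16, adjusted p = 1.30e-05). Stab1, a multi-ligand scavenger receptor, read 229, 229 and 221 CPM in control and 153, 158 and 139 CPM with oxLDL (-0.59 ± 0.14, adjusted p = 0.00542). Lrp1 read 1321, 1277 and 1376 CPM in control and 552, 948 and 1033 CPM with oxLDL (-0.65 ± 0.21, adjusted p = 0.0328). Treated libraries of all 3 genes lay below every control library. For none of the comparisons was the share of all tested genes whose libraries separated in this way counted. Stab1 and Lrp1 are long transcripts, of 10288 and 17717 bases, and neither was called once the trend of fold change with gene length had been removed (-0.16, adjusted p = 0.602, and -0.20, adjusted p = 0.305). The Lrp1 call was also lost when any WT control library was left out (adjusted p = 0.0695 to 0.0956) and in a fit of the WT libraries alone (adjusted p = 0.113). Without WT oxLDL replicate 1 Lrp1 changed by -0.40 (adjusted p = 0.0236). Stab1 shares 112 bases with Nt5dc2 on the opposite strand, and whether reads were counted by strand is not given in the sources used here.

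Of the bridging molecules, Gas6 fell most. It read 65.9, 59.7 and 55.5 CPM in WT control and 15.7, 12.5 and 12.5 CPM with oxLDL, a clear separation (log2 fold change -2.15 ± 0.14, 4.45-fold lower, adjusted p = 3.87e-07). Pros1, the second ligand of MERTK, read 61.0, 56.1 and 61.7 CPM in control and 14.0, 36.2 and 38.4 CPM with oxLDL. All treated libraries were lower, replicate 1 by the most (-1.01 ± 0.28, adjusted p = 0.0160), and without that library the change was -0.66 (adjusted p = 1.24e-05). The Pros1 call was lost in a fit of the WT libraries alone (adjusted p = 0.108). Mfge8, the bridge to integrins, read 2178, 2260 and 2367 CPM in control and 3235, 1685 and 1568 CPM with oxLDL. Replicate 1 lay above all controls and the other libraries below them, so the log2 fold change of -0.07 ± 0.23 was not called (adjusted p = 0.836). Without replicate 1 it was -0.46 ± 0.10 (adjusted p = 0.00225).

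**Figure D2:**
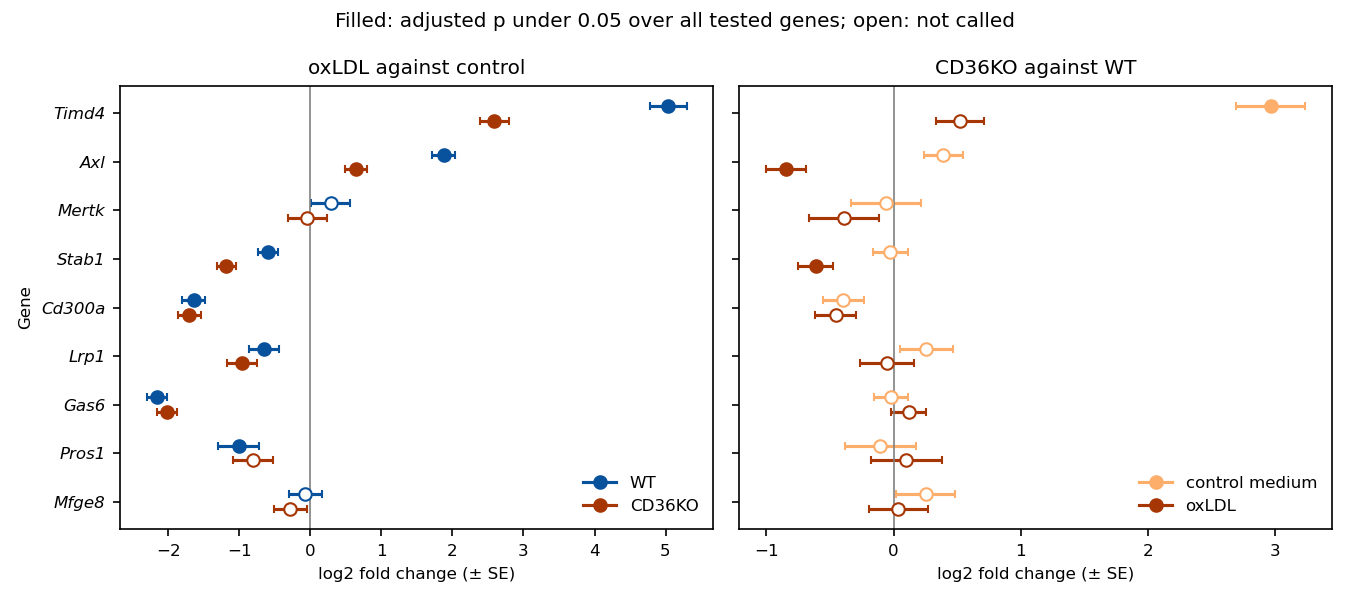
Log2 fold change ± SE (x axis) of the 9 genes (y axis) for oxLDL against control in each genotype (left) and for CD36KO against WT in each medium (right), from one edgeR fit to 12 libraries; filled points have an adjusted p under 0.05. On the left Timd4 stands at 5.03 in WT and 2.59 in CD36KO, and Axl at 1.88 and 0.64; on the right Timd4 in control medium stands at 2.97, and Axl under oxLDL at -0.85.

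The same comparison in CD36KO cells addressed which of these responses occurred in cells of the knockout genotype. Of the 9 genes, 2 rose and 4 fell, where 27.4% of tested genes were called (11.6% higher, 15.7% lower). The median log2 fold change was -0.80 over the 9 genes and -0.08 over all tested genes. Timd4 read 1.10, 1.37 and 1.53 CPM in CD36KO control and 6.82, 7.05 and 10.3 CPM with oxLDL (2.59 ± 0.21, adjusted p = 2.95e-06). Axl read 97.6, 125 and 104 CPM in control and 157, 182 and 169 CPM with oxLDL (0.64 ± 0.16, 1.56-fold, adjusted p = 0.00994). For both genes all treated libraries lay above all controls. Mertk read 133, 120 and 127 CPM in control and 103, 145 and 120 CPM with oxLDL, overlapping ranges with a log2 fold change of -0.04 ± 0.27 (adjusted p = 0.928).

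Gas6 read 55.4, 67.1 and 56.1 CPM in CD36KO control and 15.6, 14.2 and 14.4 CPM with oxLDL (-2.01 ± 0.14, 4.04-fold lower, adjusted p = 9.61e-07). Cd300a read 205, 173 and 201 CPM in control and 57.1, 58.2 and 62.4 CPM with oxLDL (-1.70 ± 0.17, adjusted p = 1.42e-05). Neither gene's groups overlapped. Stab1 read 227, 247 and 193 CPM in control and 109, 104 and 81.3 CPM with oxLDL (-1.18 ± 0.14, adjusted p = 5.96e-05). Lrp1 read 1687, 1552 and 1517 CPM in control and 774, 992 and 676 CPM with oxLDL (-0.96 ± 0.21, adjusted p = 0.00575). These 2 large receptors also fell without overlap.

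Pros1 in CD36KO cells read 53.3, 54.6 and 58.3 CPM in control and 30.5, 32.1 and 32.6 CPM with oxLDL. The groups did not overlap, but with a spread shared by all 4 groups the log2 fold change of -0.80 ± 0.28 missed the threshold (adjusted p = 0.0552). Leaving out WT oxLDL replicate 1, which is not part of this comparison but enters the shared spread, gave the same change with an adjusted p of 7.57e-07. It was also called with DESeq2 (adjusted p = 0.0391), with upper-quartile factors (0.0315), with the length trend removed (0.0336) and in a fit of the CD36KO libraries alone (0.000127). Mfge8 read 2737, 2552 and 2820 CPM in control and 1977, 2170 and 2509 CPM with oxLDL (-0.28 ± 0.23, adjusted p = 0.418; without WT oxLDL replicate 1, adjusted p = 0.0203).

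Whether the oxLDL response differed between genotypes was tested as an interaction, the CD36KO response minus the WT response. Timd4 and Axl passed, both with a smaller rise in CD36KO, where 0.669% of tested genes were called (0.436% lower). For Timd4 the difference was -2.44 ± 0.33 (adjusted p = 0.00654), and it was called with each of the 12 libraries left out in turn. Its control levels already differed, and with oxLDL all CD36KO libraries still lay above all WT libraries. For Axl the difference was -1.24 ± 0.22 (adjusted p = 0.0307). The Axl call was lost in 11 of the 12 fits that left out 1 library, with adjusted p = 0.0625 to 0.123. It held without WT oxLDL replicate 1 (-1.39, adjusted p = 0.000421).

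The other 7 genes did not pass this test. Stab1 had the largest difference among them, -0.59 ± 0.19 (adjusted p = 0.254), from a deeper fall in CD36KO. Gas6 and Cd300a gave 0.14 ± 0.19 (adjusted p = 0.864) and -0.06 ± 0.23 (adjusted p = 0.958). Mertk gave -0.34 ± 0.39 (adjusted p = 0.836), and -0.67 ± 0.16 (adjusted p = 0.0241) without WT oxLDL replicate 1. Pros1, Mfge8 and Lrp1 lay between -0.31 and 0.21.

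In control medium, CD36KO against WT compared the genotypes before any oxLDL. Timd4 was the 1 gene called of the 9, in the higher direction, where 11.2% of tested genes were called (8.78% higher). Its CD36KO libraries, at 1.10 to 1.53 CPM and 47 to 66 counts, all lay above the WT libraries at 0.149 to 0.185 CPM (log2 fold change 2.97 ± 0.27, 7.82-fold, adjusted p = 0.000141). Of the 6 markers of large peritoneal macrophages, a list that holds Timd4 itself, Gata6 was also higher in CD36KO control (1.03 ± 0.24, adjusted p = 0.0185). Adgre1 (-0.87 ± 0.11, adjusted p = 0.000988) and Cd9 (-0.42 ± 0.11, adjusted p = 0.0343) were lower, and the list summed to 834 to 909 CPM in CD36KO against 1249 to 1276 CPM in WT. Of the 5 macrophage markers, 2 were lower and 0 higher, with a median log2 difference of -0.51. In the same comparison 9 of 10 B cell markers and 4 of 10 mesothelial and fibroblast markers were higher in CD36KO. The part of these cells in the Timd4 difference was not tested. The other members' log2 differences were between -0.39 and 0.39. Axl (0.39 ± 0.16, adjusted p = 0.150), Mfge8 (0.25 ± 0.23, adjusted p = 0.628) and Lrp1 (0.26 ± 0.21, adjusted p = 0.566) had every CD36KO library above every WT library, and Cd300a (-0.39 ± 0.16, adjusted p = 0.161) had every one below. Here and in the other comparisons, the share of all tested genes whose libraries separated in this way was not counted. In a fit of the 2 control groups alone Axl, Mfge8, Lrp1 and Cd300a were all called, with adjusted p = 0.0270, 0.00554, 0.00583 and 0.00352, but that fit called 42.8% of its 15612 tested genes. Without WT oxLDL replicate 1 in the joint fit, Axl (adjusted p = 0.0169) and Cd300a (adjusted p = 0.00270) were called, where 29.3% of tested genes were.

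Under oxLDL, 2 of the 9 genes were lower in CD36KO and none was higher, where 21.6% of tested genes were called (11.7% higher, 9.86% lower). Axl stood at 157 to 182 CPM in CD36KO and 247 to 353 CPM in WT (-0.85 ± 0.16, 1.80-fold lower, adjusted p = 0.00337). Stab1 stood at 81.3 to 109 CPM in CD36KO and 139 to 158 CPM in WT (-0.61 ± 0.14, adjusted p = 0.00905). The groups did not overlap for either gene, and both calls held with each library left out in turn. In a fit of these 2 groups alone the Stab1 call was lost (adjusted p = 0.0973), where 7.8% of tested genes were called. Timd4 was at 6.82 to 10.3 CPM in CD36KO and 5.03 to 6.33 CPM in WT, and the difference of 0.52 ± 0.19 was not called (adjusted p = 0.0708). It was called with upper-quartile factors (0.64, adjusted p = 0.0331) and with the length trend removed (0.62, adjusted p = 0.0337). Cd300a also had all CD36KO libraries below all WT libraries without a call (-0.45 ± 0.16, adjusted p = 0.0670). It was called with DESeq2 (-0.49, adjusted p = 0.0301) and when any WT oxLDL library was left out (adjusted p = 0.0326 to 0.0470). Lrp1 was called as lower in CD36KO only with the length trend removed (-0.47, adjusted p = 0.0346). The mesothelial and fibroblast marker sum was 1839 to 2302 CPM in CD36KO and 650 to 953 CPM in WT in this comparison, and its part in the Axl and Stab1 differences was not tested. Stromal cells are a known source of Gas6, Pros1, Axl and Mfge8.

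**Figure D3:**
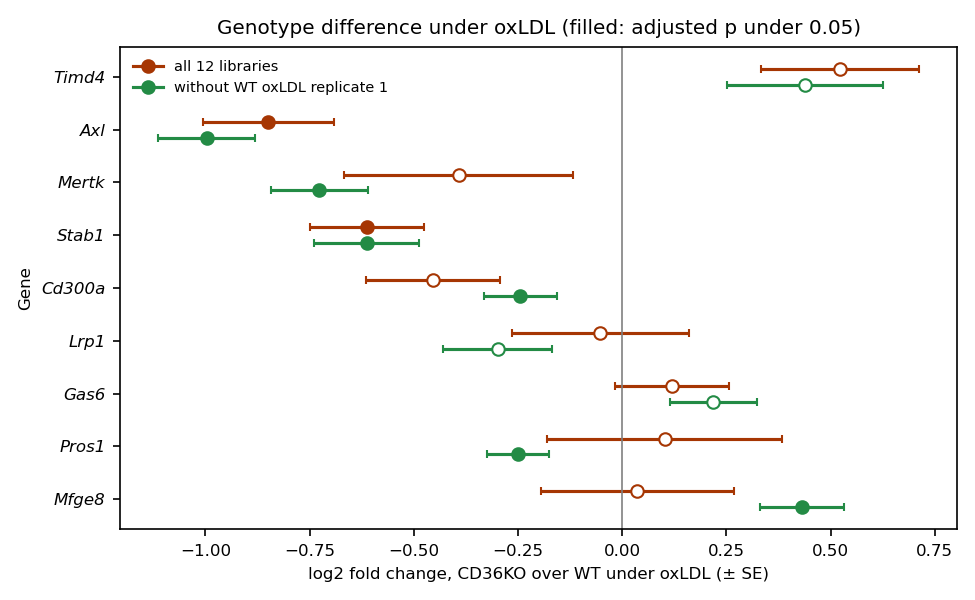
Log2 fold change ± SE (x axis) of CD36KO over WT under oxLDL for the 9 genes (y axis), with all 12 libraries and without WT oxLDL replicate 1; filled points have an adjusted p under 0.05. Axl and Stab1 are called in both fits, while Mertk moves from -0.39 to -0.73, Mfge8 from 0.04 to 0.43 and Pros1 from 0.10 to -0.25 and pass in the fit without that library and not in the other, as does Cd300a.

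WT oxLDL replicate 1 moved the count of called members most in this comparison of the 5. Over all tested genes it moved the CD36KO response more, from 4454 to 8315 calls, against 3512 to 6205 here. Without it 6 of the 9 genes were called, 5 lower and 1 higher, and the share of all tested genes called was 37.3% in place of 21.6%. Mertk was lower in CD36KO (-0.73 ± 0.12, adjusted p = 0.000472), as were Pros1 (-0.25 ± 0.07, adjusted p = 0.0194) and Cd300a (-0.24 ± 0.09, adjusted p = 0.0470). Mfge8 was higher (0.43 ± 0.10, adjusted p = 0.00556).

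Ratios of RPKM within a library set the 2 kinase receptors and their ligands side by side, as a description. The Axl to Mertk ratio was 0.486 to 0.592 in WT control and 1.43 to 2.61 in WT oxLDL, with 2.61 in replicate 1 and 1.44 and 1.43 in the others. In CD36KO it was 0.634 to 0.897 in control and 1.08 to 1.31 with oxLDL. Mertk RNA thus exceeded Axl RNA per length in all 6 control libraries, and Axl exceeded Mertk in all 6 treated ones. The summed ligands Gas6 and Pros1 over the summed receptors Axl and Mertk stood at 0.777 to 0.830 in WT control and 0.120 to 0.140 in WT oxLDL. The same ratio was 0.689 to 0.747 in CD36KO control and 0.191 to 0.245 in CD36KO oxLDL. WT oxLDL replicate 1 lay with its group in this ratio, with both Mertk and Pros1 low. These are ratios of RNA, and no protein was measured.

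**Figure D4:**
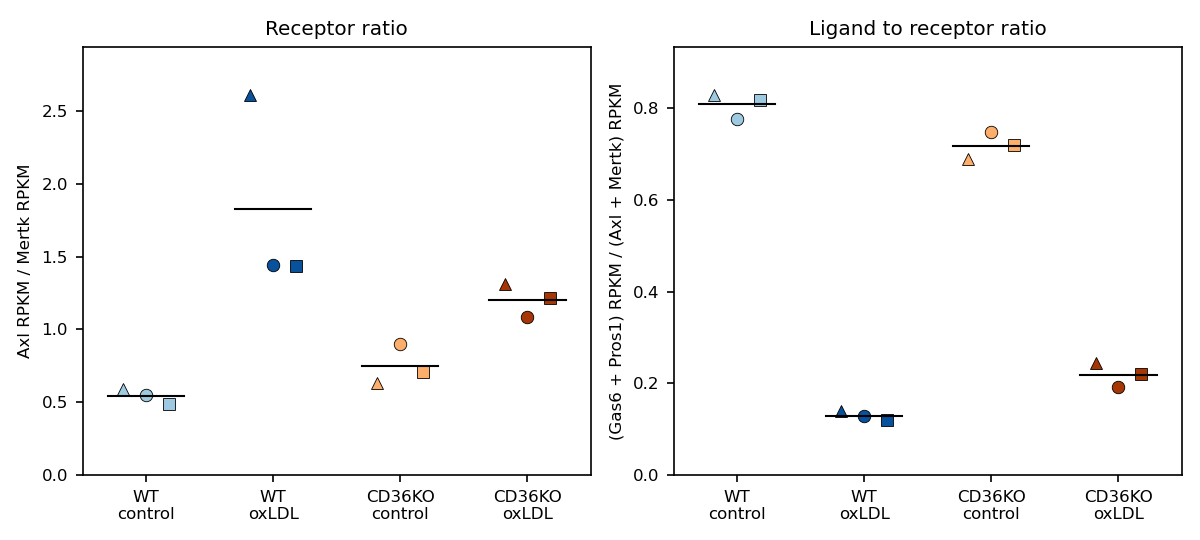
Ratios of RPKM in each library (y axes, linear from 0) by group (x axis): Axl over Mertk (left) and Gas6 plus Pros1 over Axl plus Mertk (right); triangles, circles and squares are replicates 1, 2 and 3, and lines are group means. The ligand to receptor ratio is 0.689 to 0.830 in control libraries and 0.120 to 0.245 with oxLDL.

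The other genes of the pathway were followed through 9 lists of 87 genes, of which 85 passed the filter on low counts. In WT 26 rose and 24 fell with oxLDL, where 36.7% of all tested genes were called (18.1% higher, 18.6% lower). In CD36KO 18 rose and 27 fell, where 27.4% were called (11.6% higher, 15.7% lower). The medians were 0.13 and -0.16. Without WT oxLDL replicate 1, 38 rose and 27 fell in WT and 28 rose and 35 fell in CD36KO, where 48.7% and 50% of all tested genes were called. The counts of each list in the WT and CD36KO responses stand against these same shares, and counts given below as without replicate 1 leave out that WT oxLDL library. Among 15 tested phosphatidylserine receptors and co-receptors, 1 rose and 6 fell in WT and 2 rose and 7 fell in CD36KO; without replicate 1 the counts were 2 and 7 in WT and 3 and 8 in CD36KO. Scarf1, a scavenger receptor that binds C1q on apoptotic cells, rose from 23.9 ± 1.31 to 168 ± 40.3 CPM in WT (2.81 ± 0.21, adjusted p = 1.17e-06) and in CD36KO (2.15 ± 0.20, adjusted p = 1.23e-05). Havcr2 (TIM-3) fell from 35.3 ± 1.20 to 4.32 ± 0.496 CPM in WT (-3.03 ± 0.13, adjusted p = 1.60e-08) and in CD36KO (-2.42 ± 0.12, adjusted p = 1.00e-07). Stab2, the paralog of Stab1, fell in WT (-2.97, adjusted p = 8.17e-06) and in CD36KO (-3.22, adjusted p = 1.10e-05) from 2.01 and 1.40 CPM. Tyro3, the third kinase of the AXL and MERTK family, was at 0.890 to 2.56 CPM in the group means.

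The beta chains of the integrins that receive MFG-E8 fell, while Mfge8 itself was not called in the fit of all libraries. Without replicate 1 Mfge8 was called lower too, in WT (-0.46, adjusted p = 0.00225) and in CD36KO (-0.28, adjusted p = 0.0203). Itgb5 fell from 395 ± 7.16 to 122 ± 35.9 CPM in WT (-1.70 ± 0.18, adjusted p = 2.01e-05) and in CD36KO (-2.05 ± 0.18, adjusted p = 7.03e-06). Itgb3 fell from 49.5 ± 3.75 to 7.94 ± 1.91 CPM in WT (-2.64 ± 0.18, adjusted p = 5.81e-07) and from 110 ± 6.31 to 43.5 ± 4.08 CPM in CD36KO (-1.33 ± 0.17, adjusted p = 0.000116). Their shared partner Itgav was not called in WT (-0.09 ± 0.30, adjusted p = 0.831; without replicate 1, 0.26, adjusted p = 0.124). Itgb3 was the 1 list gene whose interaction was called in the higher direction (1.30 ± 0.24, adjusted p = 0.0331), a call lost in 8 of the 12 fits that left out 1 library (adjusted p = 0.0836 to 0.133). Its CD36KO levels were higher than WT levels in control medium (1.15, adjusted p = 0.00179) and under oxLDL (2.45, adjusted p = 1.52e-05).

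Opsonins moved in part. C3, the complement component that coats targets, rose in WT (2.26 ± 0.19, adjusted p = 2.95e-06) and in CD36KO (1.50 ± 0.18, adjusted p = 9.09e-05), and Anxa1, which binds exposed phosphatidylserine, fell in both (-0.72, adjusted p = 0.00169, and -0.91, adjusted p = 0.000441). Under oxLDL the 3 chains of C1q were lower in CD36KO than in WT, with C1qb at 376 ± 124 against 1117 ± 604 CPM (-1.57 ± 0.32, adjusted p = 0.00584), C1qa at -1.36 (adjusted p = 0.00523) and C1qc at -1.50 (adjusted p = 0.00366). Trem2, a lipid receptor, was lower in CD36KO in that comparison (-1.72 ± 0.33, adjusted p = 0.00387), at 197 ± 26.1 against 649 ± 405 CPM. The WT spread of these genes was wide. Without WT oxLDL replicate 1 they were still lower in CD36KO by smaller amounts, with Trem2 at -1.09 ± 0.10 (adjusted p = 1.07e-05), C1qb at -1.05 (adjusted p = 0.000907), C1qa at -0.97 (adjusted p = 0.00106) and C1qc at -1.06 (adjusted p = 0.000310). In control medium these genes also read lower in CD36KO, but were not called in the fit of all 12 libraries. There C1qb read 595 ± 30.3 against 894 ± 22.2 CPM in WT, and C1qa 244 ± 8.19 against 336 ± 9.93 CPM. C1qc read 390 ± 9.45 against 581 ± 11.8 CPM, and Trem2 493 ± 35.4 against 819 ± 33.7 CPM.

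Cd47, the signal that protects a cell from being eaten, rose in WT (1.44 ± 0.15, adjusted p = 1.44e-05) and in CD36KO (0.85 ± 0.15, adjusted p = 0.000997). Among find-me receptors, Gpr132, which senses lysophosphatidylcholine, rose in WT (2.42 ± 0.23, adjusted p = 7.95e-06) and in CD36KO (2.07 ± 0.23, adjusted p = 3.54e-05). Cx3cr1, the receptor of fractalkine, fell in WT (-2.79 ± 0.36, adjusted p = 9.20e-05; without replicate 1, -2.41) and in CD36KO (-3.40 ± 0.37, adjusted p = 3.36e-05). Both directions thus occurred within 1 list of 4 genes.

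Of 18 genes of engulfment signalling, 7 rose and 6 fell in WT and 4 rose and 5 fell in CD36KO, where 36.7% and 27.4% of all tested genes were called. Without replicate 1 these counts became 11 and 6 in WT and 7 and 6 in CD36KO, where 48.7% and 50% were called. Tgm2, a transglutaminase that assists uptake, rose from 258 ± 4.57 to 841 ± 47.5 CPM in WT (1.70 ± 0.12, adjusted p = 5.86e-07). Elmo1, part of the complex that activates RAC1, fell from 68.1 ± 0.912 to 21.9 ± 7.07 CPM in WT (-1.64 ± 0.22, adjusted p = 0.000123) and in CD36KO (-1.42 ± 0.22, adjusted p = 0.000470). Of 14 genes of phagosome maturation, 3 rose and 5 fell in WT and 1 rose and 4 fell in CD36KO, and without replicate 1 these became 5 and 5 in WT and 4 and 5 in CD36KO. Cybb, the NADPH oxidase subunit, rose in WT (1.61, adjusted p = 0.000710; without replicate 1, 1.94) and in CD36KO (2.07, adjusted p = 0.000162).

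Of 9 transcription factors that act on efferocytosis genes, 3 rose and 4 fell in WT and 2 rose and 5 fell in CD36KO, where 36.7% and 27.4% of all tested genes were called. Without replicate 1 these became 3 and 5 in WT and 2 and 6 in CD36KO. Nr1h3 (LXR alpha), a known inducer of Mertk, rose from 49.5 ± 1.25 to 207 ± 97.3 CPM in WT (2.07 ± 0.25, adjusted p = 6.48e-05; without replicate 1, 1.63) and from 46.4 ± 1.35 to 86.8 ± 7.16 CPM in CD36KO (0.90 ± 0.25, adjusted p = 0.0174). Pparg fell from 64.8 ± 2.02 to 7.58 ± 1.24 CPM in WT (-3.10 ± 0.14, adjusted p = 2.64e-08) and in CD36KO (-2.51 ± 0.14, adjusted p = 1.78e-07).

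The list for shedding of AXL and MERTK from the membrane holds the proteases Adam17, Adam10 and Adam9, the ADAM17 partner Rhbdf2 and the protease inhibitor Timp3. Of these 5 genes 2 rose and 1 fell in WT and 2 rose in CD36KO, where 36.7% and 27.4% of all tested genes were called. Without replicate 1, 3 rose and 1 fell in each genotype. Rhbdf2, which brings ADAM17 to the surface, rose from 41.1 ± 1.94 to 173 ± 6.16 CPM in WT (2.08 ± 0.14, adjusted p = 3.87e-07) and in CD36KO (1.45 ± 0.13, adjusted p = 8.35e-06). Adam17 rose in CD36KO from 167 ± 6.94 to 405 ± 21.8 CPM (1.28 ± 0.32, adjusted p = 0.0112). Its WT response was called (1.15 ± 0.32, adjusted p = 0.0149) although the treated libraries ran from 186 to 591 CPM around a control of 201 CPM. Without replicate 1 it was 1.54 (adjusted p = 2.61e-09). Of 7 genes of the metabolism of engulfed cells, 4 rose and 0 fell in WT, and 3 rose and 1 fell in CD36KO. Without replicate 1, 6 rose and 1 fell in WT and 4 rose and 2 fell in CD36KO. Arg1, which converts arginine from engulfed cells to ornithine, rose in WT from 98.1 ± 5.82 to 241 ± 55.8 CPM (1.29 ± 0.17, adjusted p = 0.000133) and fell in CD36KO from 103 ± 7.36 to 64.1 ± 10.2 CPM (-0.68 ± 0.17, adjusted p = 0.0121). Its interaction was -1.97 ± 0.24 (adjusted p = 0.00452), called with each library left out in turn. Arg1 and Itgb3 were the 2 list genes with a called interaction, where 0.669% of all tested genes were called. Without replicate 1 there were 18, of which 5 were higher and 13 lower, where 6.96% were called. Those 18 included Nr1h3 (-0.72, adjusted p = 0.00156), Pparg (0.72, adjusted p = 0.00298), Tgm2 (-0.58, adjusted p = 0.0184), Havcr2 (0.50, adjusted p = 0.0205), Cx3cr1 (-0.99, adjusted p = 0.0252), Rhbdf2 (-0.61, adjusted p = 0.0393) and C3 (-0.86, adjusted p = 0.0435).

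**Figure D5:**
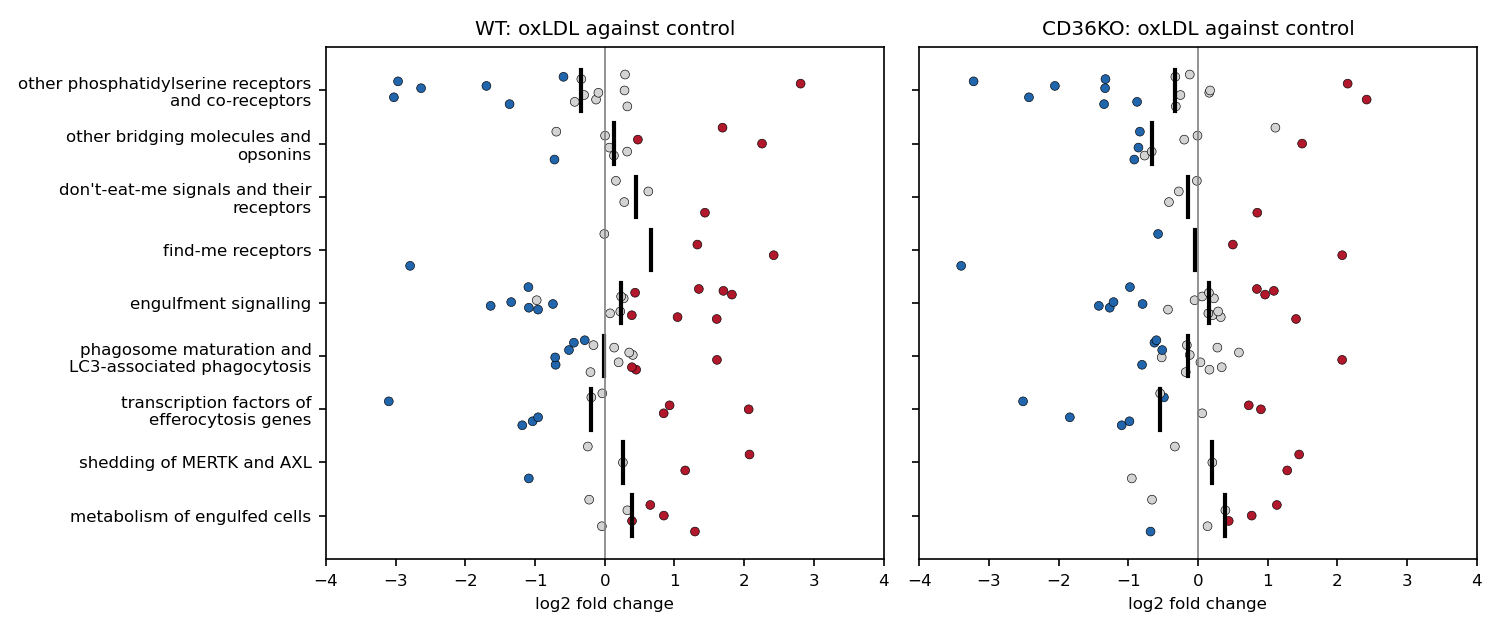
Log2 fold change with oxLDL (x axis) of the tested genes of 9 pathway lists (y axis) in WT (left) and CD36KO (right); each point is a gene, red points rose and blue points fell at an adjusted p under 0.05, grey points were not called, and black lines are list medians. Most lists hold genes of both directions; Scarf1 stands at 2.81 in WT, and Havcr2 at -3.03.

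Between genotypes, 10 list genes were higher and 5 lower in CD36KO in control medium, where 8.78% of all tested genes were higher and 2.42% lower. Under oxLDL 9 list genes were higher and 24 lower, where 11.7% of all tested genes were higher and 9.86% lower. Leaving out WT oxLDL replicate 1 raised the totals to 48 and 54 list genes, where 29.3% and 37.3% of all tested genes were called. Siglecg, an inhibitory lectin that B cells also express, was higher in CD36KO in control medium (2.41 ± 0.26, adjusted p = 0.000307), beside the higher B cell markers, and the part of B cells in it was not tested. Tyro3 was also higher in CD36KO in control medium (0.94 ± 0.20, adjusted p = 0.0103) and under oxLDL (1.21 ± 0.21, adjusted p = 0.00224).

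Over the 12 libraries, the genes most like each member were found among 10177 genes by Pearson's r of log2 CPM, as a description in which libraries share treatment and depth. Timd4 was closest to Ifi44, an interferon-stimulated gene (r = 0.988), and Vcam1, an adhesion molecule (0.983). Axl was closest to Cav1 (0.983) and Pxk (0.981), and Mertk was close to Prkx (0.972). Gas6 was closest to Adk and Jup (both 0.993), and Pros1 was close to Mrc1 (0.994), the mannose receptor. Mfge8 was closest to Gstm1 (0.981), Stab1 to Cic (0.976), Cd300a to Adssl1 (0.995) and Lrp1 to Zfyve26 (0.989). The members that most resembled each other were Gas6 and Cd300a (0.949).

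In the authors' deposited table of CD36KO against WT under oxLDL, no member had a false discovery rate under 0.05; Axl stood at 0.0549 (log2 fold change -0.76) and Stab1 at 0.291. In the authors' deposited table for control medium, Timd4 (4.52e-18), Axl (5.84e-05), Mfge8 (9.72e-05), Cd300a (1.52e-05) and Lrp1 (0.000132) had false discovery rates under 0.05. The share of all genes under 0.05 in the authors' tables was not counted, so these member results have no background beside them. Fits of the 2 compared groups alone, made here, called 42.8% of tested genes in control medium and 7.8% under oxLDL. In the authors' deposited table of the WT response, Stab1 (0.0676) and Lrp1 (0.0758) missed that threshold, while in their deposited table of the CD36KO response Pros1 (2.34e-09) passed it.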

How the data were processed

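RNA of 12 libraries was analysed from whole-number counts per gene that the authors deposited without normalization. RPKM values, which the authors computed from those counts and the gene lengths, were used to compare levels between genes. The ranks and ratios of genes in RPKM were also set side by side between groups. The authors' log2 fold changes and false discovery rates (p-value columns), from their deposited pairwise tables, are quoted as theirs. The submitters' processing notes list FastQC and the build mm10. Aligner, counter, strand setting and the program behind the authors' tests were not given in the sources used here. Groups came from the sample titles. Of 43346 gene identifiers, 98.0% were found in GENCODE M21.

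Genes were filtered with filterByExpr (minimum count 10, minimum total 15), which left 16281, and fitted with edgeR 4.0.16 in R 4.3.3: one quasi-likelihood model with 1 mean per group over all 12 libraries, TMM factors, Benjamini-Hochberg adjustment and a threshold of 0.05. Each SE was taken as |log2 fold change| / √F. Log2 CPM used a prior count of 2. Robust moderation of the dispersions was not specified in the planned design. It was adopted after a fit without it had been seen, because it gave the counts of calls of an earlier account of these data; no member's call differed between the fits. The scripts were tested on simulated data.

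The 9 genes, the pathway lists and the marker lists were chosen with earlier results of these data known. The text names Cd36, all 9 members, up to 3 called genes per list, comparison and direction by absolute fold change, and the 2 genes most correlated with each member among those with a mean CPM of at least 5. Some genes that this rule names are not reported here. Itgav, some values of Itgb3 and Itgb5, and the single marker genes fall outside that rule and were added after their values were seen. Promoters of all 9 genes matched RefSeq. Depth was 35257762 to 65135955 counts per library. Alternatives were DESeq2 1.42.0, its size factors, upper-quartile factors, no filter on low counts, removal of the trend with gene length (lowess span 0.3), fits of the compared groups alone, each library left out, and a replicate block.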

Additional observations from a re-analysis of the deposited data

Results flagged for a closer look

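Among the 9 genes and the pathway lists, 4 genes had an oxLDL response that differed between CD36KO and WT by the interaction test of edgeR's quasi-likelihood fit. The difference, CD36KO minus WT on the log2 scale, was -2.44 for Timd4 (adjusted p = 0.00654), where all 3 treated libraries of both genotypes lay above their controls. It was -1.24 for Axl (adjusted p = 0.0307), a call lost in 11 of 12 fits without 1 library (adjusted p = 0.0625 to 0.123). It was 1.30 for Itgb3 (adjusted p = 0.0331), which fell in both genotypes, a call lost in 8 of those 12 fits (adjusted p = 0.0836 to 0.133). It was -1.97 for Arg1 (adjusted p = 0.00452), which rose in WT and fell in CD36KO.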

How the results depend on the processing

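Of the comparisons of single members with an alternative, 818 kept direction and side of the threshold. A further 26 kept direction and gained a call, 20 kept direction and lost a call, and 27 reversed in sign. With DESeq2, 24 pathway genes were called between genotypes in control medium, where 15.9% of all tested genes were called. In the interaction it called 9 pathway genes and 496 of all genes. With the length trend removed, 4 members were called between genotypes under oxLDL, where 27.8% of all tested genes were called. In the interaction that fit called 4 pathway genes and 246 of all genes. In fits of the compared groups alone, the calls were 33 pathway genes and 3687 of all genes for the WT response, 5 members, 61 pathway genes and 6684 of all genes between genotypes in control medium, and 1 member, 13 pathway genes and 1191 of all genes under oxLDL. The labels do not say whether the replicate numbers pair the samples. Of 18 same-numbered pairs of libraries, 2 had a correlation of deviations over 0.1 (-0.40 to 0.36), and 2 of 12 libraries correlated best with their own number. Such deviations from means of 3 libraries, with WT oxLDL replicate 1 far from its group, cannot show or exclude a pairing. With the replicate block, the interaction gave 1 member, 1 pathway gene and 44 of all genes; Axl was lost there (-1.23, adjusted p = 0.0793) and Timd4 between genotypes under oxLDL was gained (0.51, adjusted p = 0.0388). The cause of these changes was not tested. Fits of 2 groups hold fewer libraries and take their spread from those groups only. Upper-quartile factors shifted the median of all genes by -0.12 in the WT response and 0.12 between genotypes under oxLDL.

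Leaving out each library in turn gave these ranges of calls. For the WT response they were 6 to 9 members, 37 to 65 pathway genes and 4517 to 8097 of all genes, and for the CD36KO response 6 to 8, 36 to 63 and 3397 to 8315. Between genotypes they were 1 to 3, 5 to 48 and 853 to 4870 in control medium and 2 to 6, 24 to 54 and 2068 to 6205 under oxLDL. For the interaction they were 1 to 3, 1 to 18 and 40 to 1158. Each highest value came without WT oxLDL replicate 1.

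Signs reversed in 27 cases, all for values not called in the main fit. Mertk in the CD36KO response became 0.0213 with DESeq2, 0.0212 with its size factors and 0.0105 in the fit of 2 groups, and ranged from -0.18 to 0.0664 with libraries left out. Mfge8 between genotypes under oxLDL became -0.00081 with DESeq2 and -0.00081 with its size factors. Upper-quartile factors turned Gas6 (0.0188) and Stab1 (0.0125) between genotypes in control medium, Lrp1 under oxLDL (0.0732) and the Cd300a interaction (0.0032), and removal of the length trend turned Gas6 in control medium (0.0211). With libraries left out, the ranges that crossed 0 were -0.11 to 0.0445 for Gas6 and -0.11 to 0.0626 for Stab1 in control medium. Under oxLDL they were -0.25 to 0.33 for Pros1, -0.15 to 0.43 for Mfge8 and -0.30 to 0.12 for Lrp1. In the interaction they were -0.14 to 0.44 for Pros1, -0.40 to 0.18 for Mfge8 and -0.17 to 0.15 for Cd300a, and in the WT response -0.46 to 0.12 for Mfge8.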
